A study of Homo sapiens with 4 samples.

Results

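The 10 genes described here belong to the cytoskeleton, 8 that encode tubulins (TUBA1A, TUBA1B, TUBA1C, TUBB, TUBB2A, TUBB2B, TUBB4B and TUBG1) and 2 that encode the cytoplasmic actins (ACTB and ACTG1). They were taken by their symbols from a table with 51740 rows, 1 per gene, and each of the 10 was found on 1 row. The table compares RNA of the nucleus with RNA of the cytoplasm in wildtype HEK293T cells, an established line of human embryonic kidney origin transformed with viral DNA. All cells of both groups were formaldehyde crosslinked before lysis and before nuclei were parted from cytoplasm, so no uncrosslinked or whole-cell sample is part of the comparison. There were 4 libraries, 2 biological replicates of each fraction, each made from 400 ng of RNA with a stranded kit that depletes ribosomal RNA and read from both ends for 100 nt. Because each library began with an equal mass, a value depends on the make-up of that fraction's RNA and says nothing of the number of molecules in a cell. The authors' normalized counts do not sum alike in nucleus and cytoplasm, so their ratio is not a ratio of shares. Fewer molecules of a transcript in a compartment and more RNA of other kinds there cannot be told apart.

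Alpha- and beta-tubulin pair into the dimers from which microtubules are built, and gamma-tubulin sits in the ring complexes that start new microtubules. Actin monomers assemble into the filaments that shape the cell cortex and carry myosin motors. The tubulin and cytoplasmic actin proteins are made on free ribosomes in the cytoplasm, and each needs the chaperonin CCT to fold. The mRNAs of alpha- and beta-tubulin are also known for autoregulation. Surplus tubulin protein leads to their decay during translation, after the ribosome-associated factor TTC5 has recognised the first residues of the emerging chain.

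Coding starts of beta- and gamma-tubulin and actin mRNAs are shown because they show how alike the family members are. Those of the beta-tubulins also encode the residues on which TTC5 acts. They are the first 45 coding bases of the main transcript, read 5′ to 3′ from hg38 with GENCODE 44. Capitals mark the first 4 codons of the tubulins, the stretch that encodes the start of the chain. The 4 beta-tubulin genes differ from each other within these bases, but the first 4 codons encode the same residues in all of them. TUBB and TUBB4B share these codons base for base:
TUBB: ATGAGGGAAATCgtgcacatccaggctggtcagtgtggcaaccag
TUBB4B: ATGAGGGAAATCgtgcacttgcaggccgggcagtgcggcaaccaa
TUBB2A: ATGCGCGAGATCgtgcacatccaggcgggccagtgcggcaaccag
TUBB2B: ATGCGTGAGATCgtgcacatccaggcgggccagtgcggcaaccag
The gamma-tubulin gene has its own start, which encodes other residues:
TUBG1: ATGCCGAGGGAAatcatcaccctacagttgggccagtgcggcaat
For the actins the capitals mark the 7 bases at which ACTB and ACTG1 differ:
ACTB: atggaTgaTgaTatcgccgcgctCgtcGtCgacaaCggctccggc
ACTG1: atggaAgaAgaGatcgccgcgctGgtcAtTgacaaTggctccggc

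The likeness runs through the coding sequences. TUBA1A and TUBA1B were identical at 97.2% of aligned coding bases, TUBA1B and TUBA1C at 96.8%, and TUBA1A and TUBA1C at 95.9%. TUBB2A and TUBB2B were identical at 98.2%, with 1 unbroken run of 725 identical bases, whereas the other beta-tubulin pairs lay between 84.4% and 87.3%. ACTB and ACTG1 were identical at 91.3%. A single read of 100 bases has no unique place where the same 100 bases occur at a second locus. Of the 100-base windows of the main transcript, such a second copy was found for 55.6% in TUBB2A, 48.7% in TUBB2B, 37.2% in TUBA1B, 21.2% in TUBA1A, 15% in TUBG1 and 12.3% in TUBA1C. In TUBB it was 5.42%, in TUBB4B 3.01%, in ACTB 0.175%, and in ACTG1 no window recurred. Nearly all of these windows lay in the coding part. The main protein-coding partner was TUBB2B for TUBB2A, TUBG2 for TUBG1, and TUBA1A, TUBA1B and TUBA1C for one another, so the split of reads within those 3 groups is less certain than the values of TUBB, TUBB4B and the actins. The antisense lncRNA TUBA1B-AS1, which overlaps TUBA1A and TUBA1B, was a further place. It held 12.1% of the windows of TUBA1C, against 10.4% in TUBA1B. The second read of a pair, which can help to place it, was not considered.

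The deposited values pool the libraries, and counts per library were recovered from them. Counts are whole numbers, and few sets of them give a gene's deposited mean and fold change together. The deposited standard error served to set the spread in the model, so it did not choose between sets. The search kept each library within 1.6-fold of its fraction's mean, or 2.5-fold for genes with a mean up to 2000. Within that window a single set of 4 counts was found for 9 of the 10 genes. For TUBA1B, TUBB and ACTB among them the recovery was not checked by simulation, so their counts per library are less certain. For ACTG1 there were 2 sets, and both are given. The libraries of a fraction are called A and B, with A the one that has the larger size factor, since the replicate number of each is not known from the table. Size factors were 1.34 and 1.19 for nuclear A and B, and 0.853 and 0.755 for cytoplasmic A and B. The total count of each library was not available, so depth is given by the genes' own counts. As a check of the fractions, the nuclear lncRNA MALAT1 had a log2 fold change, cytoplasm over nucleus, of -3.47 and GAPDH, a glycolytic enzyme, one of 3.78. All 6 markers fixed for the line (VIM, KRT8, KRT18, NEFM, LIN28B and PAX2) were detected, PAX2 with a mean normalized count of 63.1. Markers of blood, liver, T and endothelial cells (PTPRC, ALB, CD3E and PECAM1) had means of 0.293 to 6.22.

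All 10 genes were higher in the cytoplasmic fraction, by 4.45-fold to 10.2-fold, each at or under an adjusted p of 0.01 by the Wald test of the authors' deposited DESeq2 table. None was higher in the nuclear fraction. Among all 23333 tested genes, those with an adjusted p-value, 25.9% were higher in the cytoplasm by the same rule. The median log2 fold change was 2.73 over the 10 genes, -0.12 over all tested genes and 0.11 over the 15336 tested protein-coding genes. Together the 10 genes made up 0.157% of the normalized counts in the nuclear fraction and 0.788% in the cytoplasmic fraction. The scale bears on this, since the sum of all normalized counts was 18136040 for nuclear and 28705052 for cytoplasmic means. When every fold change was lowered by 0.66 on the log2 scale to make these sums equal, all 10 genes remained higher in the cytoplasm, by 2.81-fold to 6.47-fold, against 16.2% of all tested genes. Within each fraction, library B was above library A for all 10 genes after normalization, and no cytoplasmic library overlapped a nuclear one for any of them. With 2 libraries in each fraction, an exact two-sided permutation test of a single gene cannot give a p-value below 0.333, so the p-values rest on a spread that the authors' model shares across genes.

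**Figure D1:**
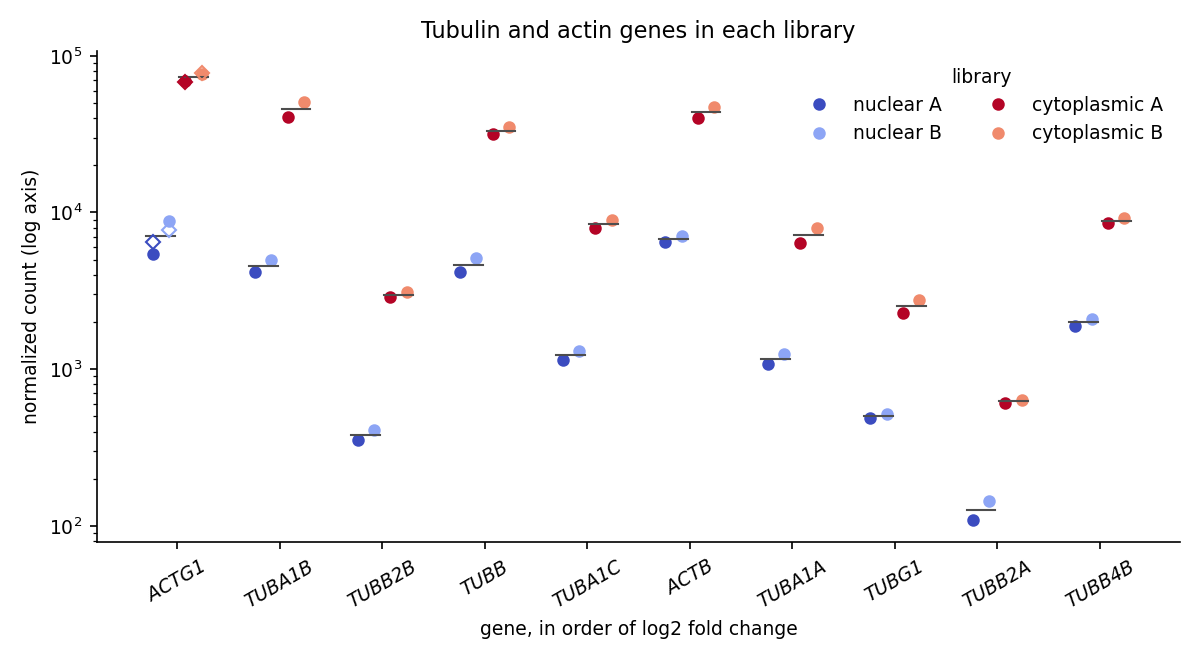
Normalized counts (vertical log axis) of the 10 tubulin and actin genes in each of the 4 libraries, with genes in order of log2 fold change. Filled points are libraries, open diamonds the other count set of ACTG1, and bars the means of 2 libraries. In every gene both cytoplasmic points lie above both nuclear points, and the nuclear libraries of ACTG1 lie apart in the first count set, at 5419 and 8825.

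Among the alpha-tubulins, TUBA1B (chromosome 12, 49127782 to 49131397, minus strand), the main alpha-tubulin of dividing cells, was counted 5573 and 5919 times in nuclear A and B and 34769 and 38332 times in cytoplasmic A and B. Its normalized counts were 4156 and 4977 in the nucleus and 40767 and 50798 in the cytoplasm, or 4567 ± 581 and 45783 ± 7093 (SD, n = 2). The lower cytoplasmic library was 8.19-fold above the higher nuclear one. Its log2 fold change in the deposited DESeq2 table was 3.33 ± 0.13 (standard error, as after every ± beside a log2 fold change below), with an adjusted p-value of 2.24e-140. TUBA1C (chromosome 12, 49188736 to 49274600, plus strand) was counted 1544 and 1561 times in the nuclear and 6835 and 6768 times in the cytoplasmic libraries. That gave 1232 ± 114 normalized counts in the nucleus and 8492 ± 675 in the cytoplasm (SD, n = 2), with no overlap, and a log2 fold change of 2.79 ± 0.12 (adjusted p-value 1.64e-118). TUBA1A (chromosome 12, 49184686 to 49189080, minus strand), an isotype known for its role in the developing brain, was counted 1444 and 1489 times in nuclear A and B and 5450 and 6043 times in cytoplasmic A and B. Its normalized counts were 1164 ± 124 in the nucleus and 7199 ± 1144 in the cytoplasm (SD, n = 2), again without overlap, and its log2 fold change was 2.63 ± 0.14 (adjusted p-value 7.87e-82). The 3 genes lie next to each other on chromosome 12. In GENCODE 44, a later annotation than the authors', other genes cover 100% of the exonic bases of TUBA1B and 93.4% of those of TUBA1A, the antisense lncRNA TUBA1B-AS1 among them. Stretches shared by genes were removed by the authors before counting, and whether the counting used the strand is not given in the sources used here.

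The 4 beta-tubulins lay between log2 fold changes of 2.15 and 2.98, all below TUBA1B and ACTG1. TUBB2B (chromosome 6, 3223324 to 3231730, minus strand), best known from neurons, had the highest fold change among them. It was counted 474 and 485 times in nuclear A and B and 2472 and 2330 times in cytoplasmic A and B. Its normalized counts of 381 ± 38.4 in the nucleus and 2993 ± 134 in the cytoplasm (SD, n = 2) did not overlap, and the log2 fold change was 2.98 ± 0.13 (adjusted p-value 1.37e-108). TUBB (chromosome 6, 30717435 to 30725538, plus strand), the widely expressed class I isotype, had 5568 and 6060 nuclear and 27058 and 26347 cytoplasmic counts. After normalization these were 4624 ± 667 and 33321 ± 2255 (SD, n = 2). Its log2 fold change was 2.85 ± 0.12 (adjusted p-value 1.82e-120). TUBB2A (chromosome 6, 3153497 to 3157544, minus strand) had the lowest counts of the 10, 146 and 171 in the nuclear and 519 and 481 in the cytoplasmic libraries. With 55.6% of its windows found elsewhere too, its counts may not give its abundance. Its nuclear value, 126 ± 24.7 normalized counts (SD, n = 2), had a wide relative spread, and its cytoplasmic value was 623 ± 20.4. The log2 fold change of 2.31 had the largest standard error of the 10 genes, 0.20 (adjusted p-value 4.93e-29). TUBB4B (chromosome 9, 137241287 to 137243707, plus strand), a further widely expressed isotype, had the lowest fold change of the 10. It was counted 2528 and 2494 times in the nuclear and 7284 and 6925 times in the cytoplasmic libraries. Its 1991 ± 150 nuclear and 8859 ± 450 cytoplasmic normalized counts (SD, n = 2) were still far apart, with a log2 fold change of 2.15 ± 0.11 (adjusted p-value 1.34e-80).

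The gamma-tubulin gene TUBG1 (chromosome 17, 42609641 to 42615238, plus strand), the only one of the 10 with 11 exons in its main transcript, was counted 658 and 614 times in nuclear A and B and 1945 and 2081 times in cytoplasmic A and B. Its normalized counts were 504 ± 18.1 in the nucleus and 2519 ± 337 in the cytoplasm (SD, n = 2). The nuclear libraries nearly coincided and the cytoplasmic ones stood 4.42-fold or more above them. The log2 fold change was 2.32 ± 0.14 (adjusted p-value 2.22e-60).

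Both actins were abundant, with ACTG1 the highest of the 10 genes in mean and ACTB close to TUBA1B. ACTB (chromosome 7, 5526409 to 5563902, minus strand), which encodes beta-actin, was counted 8740 and 8403 times in nuclear A and B and 34083 and 35563 times in cytoplasmic A and B. Its 6792 ± 388 nuclear and 43546 ± 5067 cytoplasmic normalized counts (SD, n = 2) gave a log2 fold change of 2.68 ± 0.11 (adjusted p-value 5.44e-120). ACTG1 (chromosome 17, 81509413 to 81523847, minus strand), which encodes gamma-actin, had the highest fold change of the 10. Its nuclear counts were 7267 and 10495 in the first set and 8701 and 9221 in the second. Its cytoplasmic counts were 58831 and 58019 in the first and 58289 and 58500 in the second. Both sets gave about the same means, 7122 and 7121 normalized counts in the nucleus and 72934 and 72935 in the cytoplasm, but the nuclear SD was 2408 in the first and 895 in the second (n = 2). In either set the cytoplasmic libraries were above the nuclear ones, by at least 7.82-fold. The log2 fold change was 3.36 ± 0.12 (adjusted p-value 9.47e-173).

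**Figure D2:**
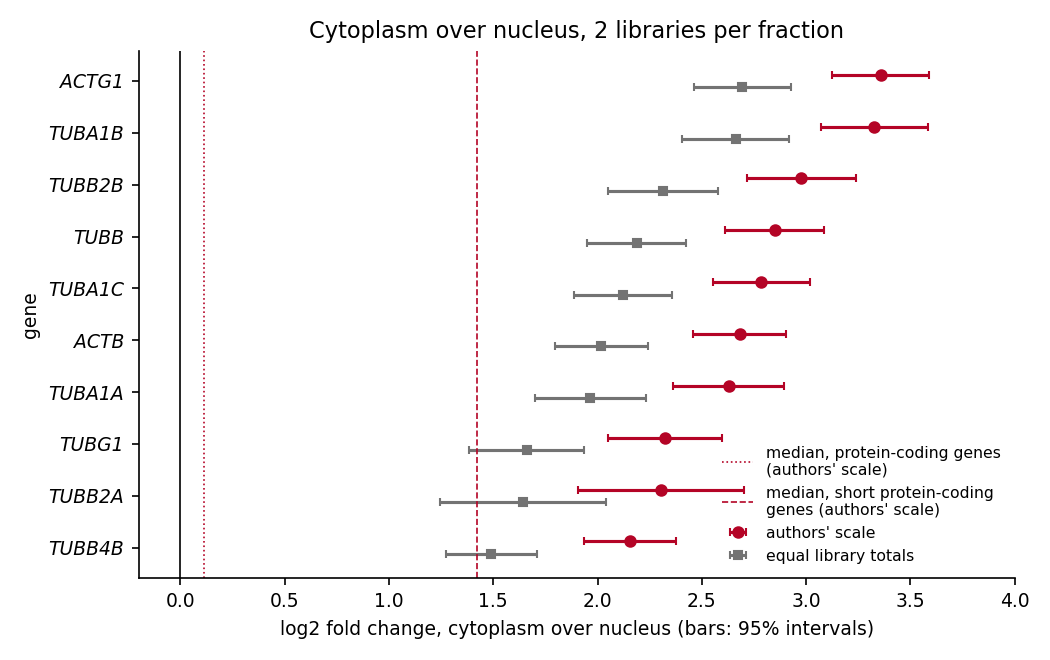
Log2 fold change, cytoplasm over nucleus, of each of the 10 genes, with bars for the 95% intervals from the standard errors, on the authors' scale (circles) and with equal library totals (squares). The dotted and dashed lines mark the medians on the authors' scale of all tested protein-coding genes (0.11) and of those with a span like that of the 8 shortest of the 10 genes (1.42). All circles lie to the right of both lines, from 2.15 for TUBB4B to 3.36 for ACTG1.

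In order of fold change the genes were ACTG1, TUBA1B, TUBB2B, TUBB, TUBA1C, ACTB, TUBA1A, TUBG1, TUBB2A and TUBB4B. No 2 neighbours in that order differed by more than the 95% limits that their combined standard error gives, but 27 of the 45 pairs did. The combined error treats the 2 genes of a pair as independent, although they were measured in the same libraries. Both actins differed from each other, ACTG1 being higher than ACTB by 0.68 with a combined error of 0.17. TUBA1B was above TUBA1A by 0.70 with a combined error of 0.19, and above TUBA1C by 0.54 with one of 0.18, while TUBA1C and TUBA1A differed by 0.16 with one of 0.18. Among the beta-tubulins, TUBB was above TUBB4B by 0.70 with a combined error of 0.17. TUBB2B was above TUBB2A, its closest copy in sequence, by 0.67 with a combined error of 0.24. These differences do not depend on the scale, which moves every gene alike. Intronic reads were part of these fold changes, and the annotated introns differ in length. The higher gene has less intron in TUBA1B against TUBA1C (0.042 and 81.4 kb) and ACTG1 against ACTB (10.4 and 33.1 kb). It has more in TUBB against TUBB4B (4.03 and 0.384 kb) and TUBB2B against TUBB2A (4.25 and 1.14 kb). What this does to the differences was not tested.

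Shares within a library restate these contrasts library by library, without any scaling between libraries. The recovered counts were chosen to give the deposited fold changes, so the shares are not separate evidence. Of the counts of TUBA1A, TUBA1B and TUBA1C, TUBA1B held 65.1% and 66.0% in nuclear A and B and 73.9% and 75% in cytoplasmic A and B. TUBA1A went the other way, with 16.9% and 16.6% in the nuclear and 11.6% and 11.8% in the cytoplasmic libraries, and TUBA1C had 18.0% and 17.4% against 14.5% and 13.2%. Over 7 beta-tubulin genes, TUBB held 56.5% and 59.1% in the nuclear and 69.2% and 69.8% in the cytoplasmic libraries. TUBB4B held 25.6% and 24.3% of the nuclear but 18.6% and 18.3% of the cytoplasmic beta-tubulin counts. TUBB2B was at 4.81% and 4.73% in the nucleus and 6.32% and 6.17% in the cytoplasm, and TUBB2A at 1.48% and 1.67% against 1.33% and 1.27%. Of the actin counts, ACTG1 held 45.4% and 55.5% in the nuclear libraries by its first count set and 49.9% and 52.3% by its second, against 63.3% and 62.0% or 63.1% and 62.2% in the cytoplasmic ones. For every one of these genes the nuclear and the cytoplasmic libraries did not overlap. The 95% Wilson intervals of the shares reached at most 1.01 percentage points to either side for the alpha-tubulins, 0.978 for the beta-tubulins and 0.771 for the actins. They treat every read as independent and leave out the spread between replicates. The nuclear shares of ACTG1 lay further apart than these intervals, by 45.4% and 55.5% in its first count set or 49.9% and 52.3% in its second. Which of the 2 sets is the true one is not known. The reads carry no molecular identifiers as far as the sources used here say, so copies of 1 molecule could not be told apart.

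**Figure D3:**
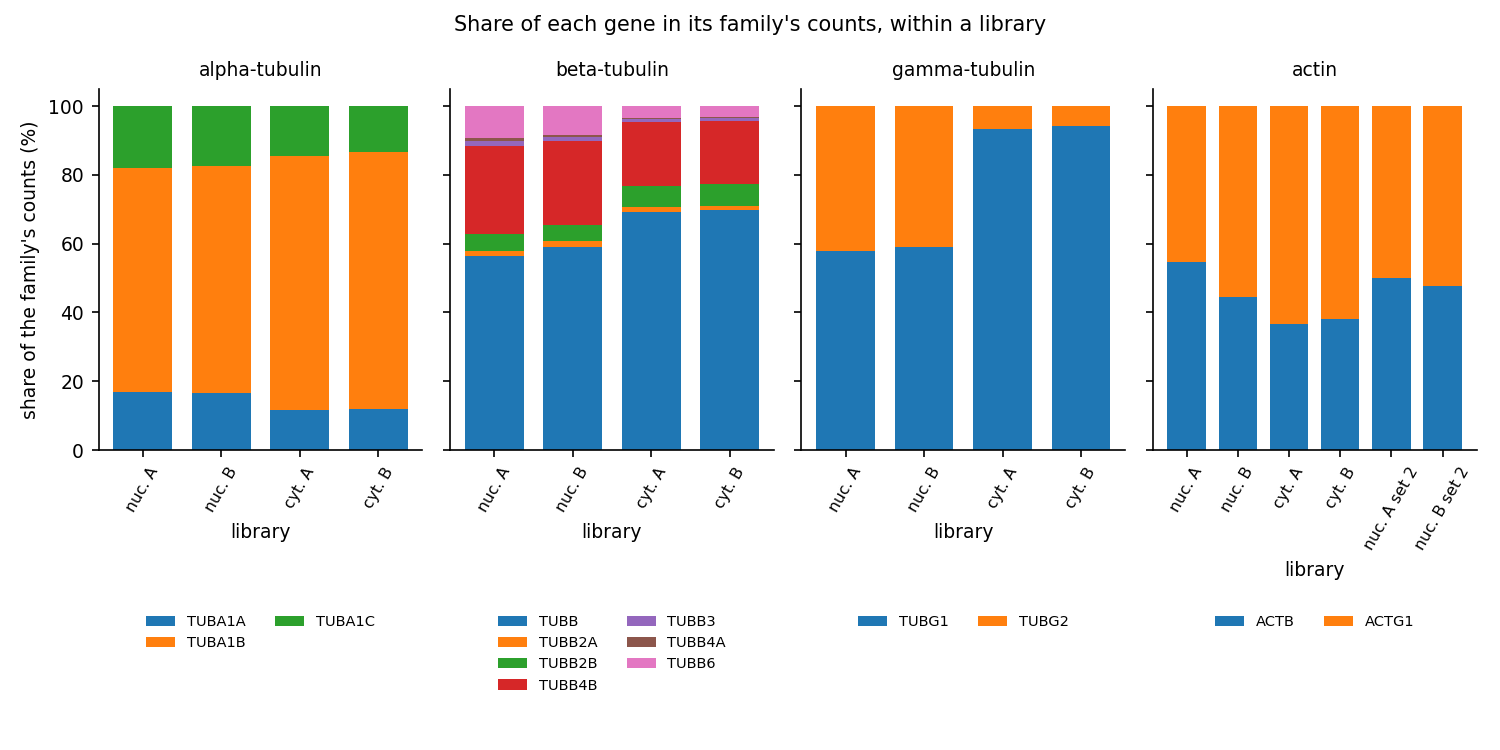
Share of each gene (stacked bars, percent) in the counts of its family within each library, for alpha-tubulin, beta-tubulin, gamma-tubulin and actin. The last 2 actin bars use the second count set of ACTG1. The shares of TUBA1B, TUBB, TUBG1 and ACTG1 are larger in both cytoplasmic (cyt.) than in both nuclear (nuc.) libraries, and TUBG2 holds 42.2% and 40.9% of the gamma-tubulin counts in the nuclear but 6.67% and 5.71% in the cytoplasmic libraries.

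Levels were compared between genes per kilobase of annotated exon, as normalized counts. In the cytoplasm ACTG1 stood highest at 17999 per kilobase, followed by TUBA1B at 12810 ± 1985, ACTB at 9885 ± 1150, TUBB at 8185 ± 554 and TUBB4B at 4349 ± 221 (SD, n = 2). TUBA1C at 1907 ± 152 and TUBA1A at 1883 ± 299 overlapped, and they were followed by TUBB2B at 719 ± 32.2, TUBG1 at 584 ± 78.2 and TUBB2A at 214 ± 7.03. No other neighbours in the cytoplasmic order overlapped. In the nucleus the order was ACTG1 (1758), ACTB (1542), TUBA1B (1278), TUBB (1136), TUBB4B (978), TUBA1A (305), TUBA1C (277), TUBG1 (117), TUBB2B (91.5) and TUBB2A (43.5), in the same unit. ACTG1 and ACTB, TUBA1B and TUBB, TUBB and TUBB4B, and TUBA1A and TUBA1C overlapped there. Averaged over the 4 libraries, the highest gene was 76.6-fold above the lowest. Intronic reads were counted too, and TUBA1C is annotated with 81.4 kb of intron, so its level per exonic kilobase may hold reads from introns to an extent that was not tested. The length open to counting is not known. In GENCODE 44 other genes cover 100% of the exonic bases of TUBA1B, 93.4% of TUBA1A and 51.5% of TUBA1C, but 0% of ACTB. Levels were also not corrected for windows that recur elsewhere, 55.6% in TUBB2A and 48.7% in TUBB2B. The order and the range of the levels are uncertain to that extent.

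All 10 genes ranked high among protein-coding genes. Between 90.2% (TUBB4B) and 98.6% (ACTG1) of tested protein-coding genes lay lower in log2 fold change. By mean normalized count, 99.9% lay below ACTG1 and 41.0% below TUBB2A. The genes are short, with annotated spans from 2.42 kb (TUBB4B) to 14.4 kb (ACTG1) apart from ACTB (37.5 kb) and TUBA1C (85.9 kb). Of the 11079 tested protein-coding genes with a span in the range of all 10, 4932 were higher in the cytoplasm and 1839 in the nucleus, and their median log2 fold change was 0.53. In the range of the 8 shorter ones, 2216 of 3618 genes were higher in the cytoplasm and 222 in the nucleus, with a median of 1.42. Each of the 10 genes lay above both medians. Among protein-coding genes of high mean (at least 0.5 times that of TUBA1B), the 3 nearest to it in log2 fold change were the ribosomal protein genes RPS3 (3.32), RPS7 (3.32) and RPL7 (3.32). Among the 47 genes with at least 0.5 times the mean of ACTG1, a smaller pool than the 122 for TUBA1B, they were TUBA1B (3.33), RPS3 (3.32) and RPS10 (3.42).

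**Figure D4:**
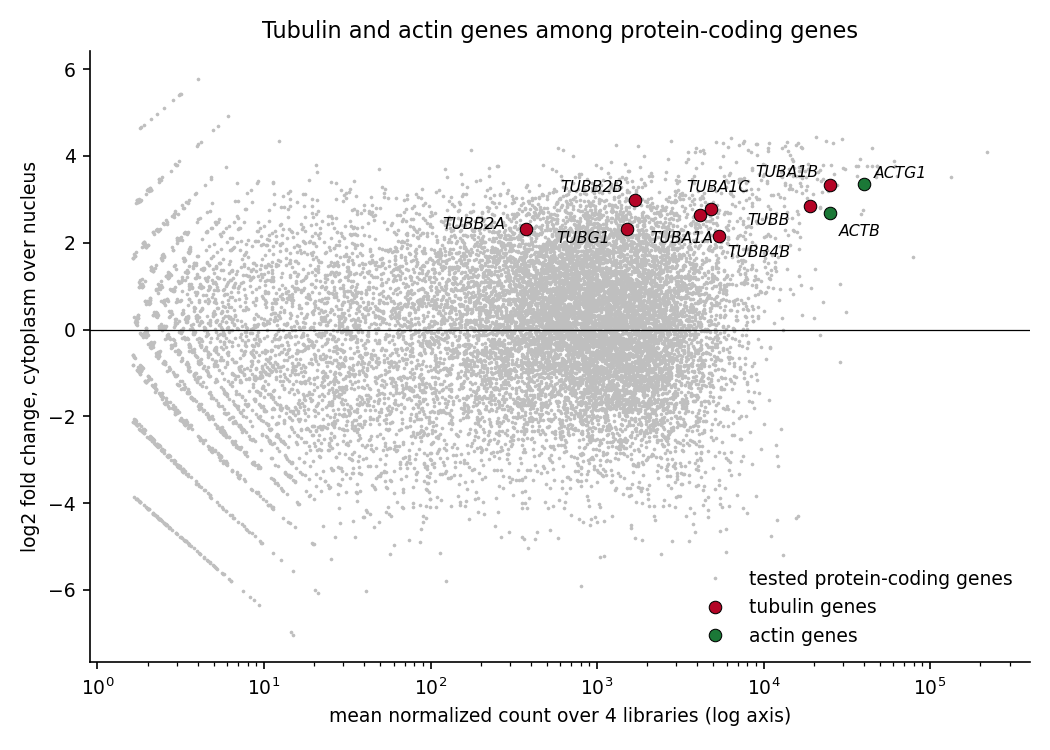
Log2 fold change, cytoplasm over nucleus, against the mean normalized count over 4 libraries (horizontal log axis) for tested protein-coding genes (grey), tubulin genes (red) and actin genes (green). The 10 named genes form a band between 2.15 and 3.36 at means from 375 (TUBB2A) to 40028 (ACTG1).

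Other tubulin genes were spread over both directions. Of 15 listed, 10 were tested, and 3 were higher in the cytoplasm and 3 in the nucleus, where 26.5% of all tested genes were higher. With equal library totals these were 2 and 5, but the share of all tested genes higher in the nucleus on that scale was not computed. The gamma-tubulin genes had opposite signs. TUBG2, the other gamma-tubulin gene, was counted 480 and 425 times in the nuclear and 139 and 126 times in the cytoplasmic libraries, and its log2 fold change was -1.12 ± 0.21 (adjusted p-value 5.25e-07). It differed from TUBG1 by 3.44 with a combined error of 0.26. All the recurring windows of TUBG1 lay in TUBG2, so reads from these could be placed in either gene, and what this does to the split was not tested. TUBG1 held 57.8% and 59.1% of the gamma-tubulin counts in nuclear A and B and 93.3% and 94.3% in cytoplasmic A and B, with Wilson intervals of at most 2.98 points to either side. Of the rarer alpha-tubulins, TUBA8 was counted 371 and 286 times in the nuclear and 73 and 49 times in the cytoplasmic libraries, at -1.78 ± 0.28 (adjusted p-value 4.89e-10), which lay 4.41 below TUBA1A with a combined error of 0.31. The centriole tubulins also lay below the 10 genes, TUBD1 (delta-tubulin) at -1.50 (adjusted p-value 4.85e-22) and TUBE1 (epsilon-tubulin) at -0.25, which did not pass (adjusted p-value 0.104). TUBE1 did pass with equal library totals, at -0.92 (adjusted p-value 1.44e-10).

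The rarer beta-tubulins were on the cytoplasmic side, but lower than TUBB. TUBB3, the neuronal class III isotype, was counted 139 and 115 times in the nuclear and 288 and 358 times in the cytoplasmic libraries, at 2.02 ± 0.24 (adjusted p-value 3.01e-16). TUBB6 was at 1.2 ± 0.13 (adjusted p-value 4.08e-19), below TUBB by 1.65 with a combined error of 0.18 and below TUBB4B by 0.96 with one of 0.17. TUBB4A was at 0.95 ± 0.34 (adjusted p-value 0.00901), and it no longer passed with equal library totals (adjusted p-value 0.475) or Bonferroni adjustment. TUBB3 and TUBB4B differed by 0.14, with an interval of -0.38 to 0.66. The smooth muscle actin ACTA2, with 40 and 27 nuclear and 91 and 82 cytoplasmic counts, was at 2.03 ± 0.40 (adjusted p-value 1.09e-06), a call that Bonferroni adjustment ended (0.0128). Its distance from ACTB, 0.65, had an interval of -0.17 to 1.47, and that from ACTG1, 1.33, one of 0.51 to 2.14.

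Pseudogenes named after these genes took few counted reads. There were 46 pseudogene rows whose symbol is that of 1 of the 10 genes, TUBA or ACTG, followed by P and digits. A mean of 0 was found for 25 of them, and the summed mean of all 46 was 0.505% of that of the 10 genes. Pseudogenes with other symbols were left out. Reads that fit a pseudogene and another gene equally well may have gone uncounted, which was not tested. Of the 46 rows, only TUBBP5 and ACTG1P17 had a mean over 50. TUBBP5 was counted 602 and 497 times in the nuclear and 423 and 402 times in the cytoplasmic libraries, and its log2 fold change was 0.25 with an adjusted p-value of 0.208. ACTG1P17 was counted 180 and 151 times in the nucleus and 20 and 16 times in the cytoplasm, at -2.55 ± 0.41 (adjusted p-value 1.45e-09), opposite in sign to ACTG1.

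Genes that act on tubulin were called in both directions. Of 4 genes of tubulin mRNA autoregulation, 3 were higher in the cytoplasm and 1 in the nucleus. TTC5, outside the rule for named genes and named for its role after its values were seen, had 1213 and 1186 nuclear and 1280 and 1270 cytoplasmic counts, with a log2 fold change of 0.74 ± 0.14 (adjusted p-value 1.19e-07) that moved to 0.08 with equal library totals (adjusted p-value 0.628). SCAPER, an adaptor that joins TTC5 to the deadenylase, was at -2.85 ± 0.14 (adjusted p-value 4.83e-94), with 6173 and 5215 nuclear and 598 and 410 cytoplasmic counts. Its span is 558 kb, of which introns were counted. The deadenylase subunits CNOT11 and CNOT1 were at 1.80 and 0.93, the latter not passing with equal library totals (adjusted p-value 0.0337). Of the 9 prefoldin genes, whose products hand tubulin and actin to CCT, 8 were higher in the cytoplasm, led by PFDN5 at 2.87, and URI1 was at -1.12. The 7 tubulin folding cofactor genes, on 8 rows, gave 3 cytoplasmic and 4 nuclear calls. Rows with a mean over 50 ran from ARL2, the small GTPase, at 2.98 to TBCEL at -1.0, and the lowest of all 8 rows was at -1.61. Of 9 gamma-tubulin ring complex partners, 5 were higher in the cytoplasm and 3 in the nucleus, from the small subunit gene MZT2B at 2.66 to the large subunit gene TUBGCP6 at -1.58, with a median of 0.42 that was -0.24 with equal library totals. The 18 tubulin-modifying enzymes gave 7 calls in each direction, from AGBL5 at 2.59 to TTLL3 at -2.59. Microtubule-associated and tip proteins gave 10 cytoplasmic and 8 nuclear calls of 22, from the tubulin-sequestering STMN1 at 2.32 to MAP2, a dendritic protein, at -2.25. By mean, the highest genes of these lists were CNOT1, URI1, TUBGCP3 at -0.55, the folding cofactor TBCD at -0.47, the deglutamylase gene AGTPBP1 at -0.62 and MAP4 at -0.66, and all but CNOT1 were higher in the nucleus, TUBGCP3 and TBCD not under Bonferroni adjustment. With equal library totals, cytoplasmic and nuclear calls were 4 and 4 for the ring complex partners, 6 and 9 for the modifying enzymes, 5 and 11 for the microtubule-associated proteins and 1 and 1 for autoregulation.

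Most genes that act on actin monomers were on the cytoplasmic side. Of 15 monomer-binding and severing genes, 13 were higher in the cytoplasm and CAP2, at -2.13, in the nucleus, and the median was 2.10. TMSB10, a thymosin that sequesters monomers, was at 4.0 ± 0.12, above ACTG1, and PFN1, profilin, was at 3.42. Of 10 Arp2/3 complex genes, which branch actin filaments, 9 were higher in the cytoplasm (median 1.47), from ARPC5 at 2.70 down to ACTR3B, the 1 nuclear call, at -1.99. Of 9 tested tropomyosin and non-muscle myosin II genes, 7 were higher in the cytoplasm and 2 in the nucleus (median 2.03), with the light chain gene MYL6 at 3.07 and TPM2 at -2.06. Capping, bundling and nucleation genes were divided, with 9 cytoplasmic and 7 nuclear calls of 20, from FSCN1 at 2.41 to the formin DIAPH2 at -3.14. Of the 6 actin-responsive transcription genes, SRF was at 1.78 and its actin-sensing coactivator MRTFA at -2.19, with 2 calls in each direction. The 5 actin-related proteins of nuclear chromatin complexes gave 2 cytoplasmic calls, ACTR8 at 1.35 and ACTL6A at 1.34, and the 3 of dynactin were all called cytoplasmic, with ACTR1A highest at 1.86. Intermediate filament and lamin genes, the other filament system, gave 8 cytoplasmic calls of 9, from KRT18 at 3.29 and VIM at 3.03 to LMNB1 at 0.05, which did not pass. Over all lists, 93 of 161 rows were higher in the cytoplasm and 40 in the nucleus, with a median of 0.89 against 2.73 for the 10 tubulin and actin genes. With equal library totals they were 71 and 54, and within them 5 and 11 for capping, bundling and nucleation, 1 and 2 for actin-responsive transcription, 2 and 1 for the nuclear and 1 and 0 for the dynactin actin-related proteins, and 7 and 1 for intermediate filaments and lamins. By mean the highest of their lists were ARPC2 at 1.22, the crosslinker gene FLNA at 1.04 and the myosin heavy chain gene MYH9 at 1.15, each below both actins. The lists were not tested as sets, and their counts are set only beside the shares of all tested genes given above. With equal library totals only the cytoplasmic share, 16.2%, was computed. Lowering every fold change can add nuclear calls among all genes. The nuclear counts of the lists on that scale therefore have no background here and are not read as a trait of the lists.

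**Figure D5:**
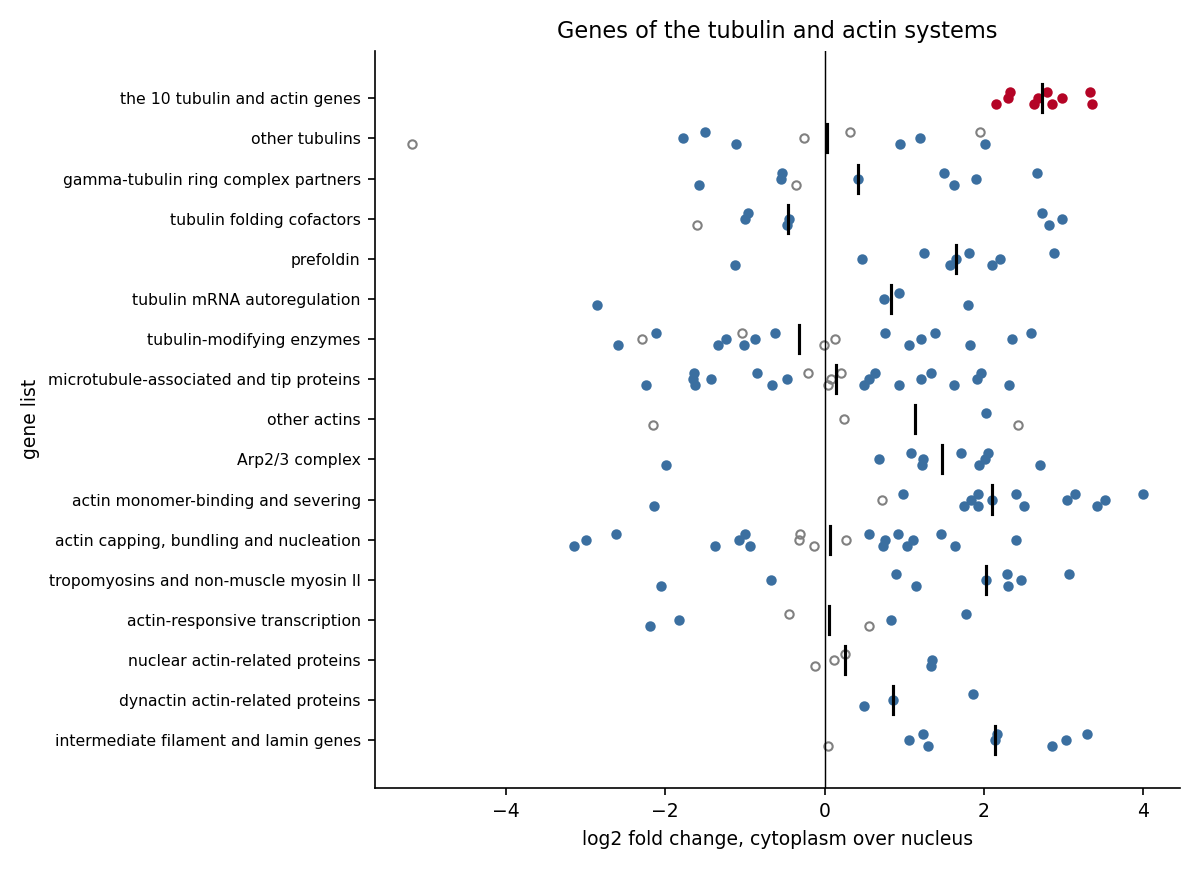
Log2 fold change, cytoplasm over nucleus, of the 10 tubulin and actin genes and of the tested genes of 16 lists of their partners, 1 row per list. Filled points passed an adjusted p-value of 0.01, open points did not, and black bars are medians. The 10 genes lie between 2.15 and 3.36, while 14 of the lists hold genes on both sides of 0.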

How the data were processed

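Per the labels and the study's methods, reads were aligned to hg38 with STAR and counted per gene with featureCounts 2.0.2 over exons and introns, on an annotation from which stretches shared by genes had been removed. The deposited table holds only the authors' DESeq2 comparison of 4 libraries, cytoplasm over nucleus. Its mean normalized count is a signal, averaged by the authors across libraries. The deposited fold change and its standard error are on the log2 scale, the deposited statistic is the Wald score, and the deposited p-value was adjusted by the authors over 23333 genes. These columns were used because the table holds no count per library, and a gene counted as called when its adjusted p was 0.01 or less.

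Counts per library were then recovered. The mean of a gene with 1 read is the inverse of 4 times its library's size factor, which gives all 4 size factors, and the sign of its fold change gives the fraction. Sets of whole numbers with a gene's deposited mean were fitted with a negative binomial model of 1 mean per fraction. For each set the spread in the model was chosen to give the deposited standard error. A set was kept when it gave the deposited fold change to within 8e-10. The largest misfit of a single set was 5.23e-10. Of 24 genes tried, 23 had 1 set. On simulated data 12 of 12 sets were recovered as the only one, but TUBA1B, TUBB, ACTB and ACTG1 were not simulated. For these genes, between 168199 (TUBB) and 587313 (ACTG1) sets of whole numbers had the deposited mean. For the other tubulin genes tried there were 2208 (TUBB4B) or fewer. The simulation therefore cannot tell whether a set found for TUBA1B, TUBB or ACTB is the true one. A limit on the fold change 20 times as wide admitted 1 further set each for TUBA1B and ACTB, 0 for TUBB and 6 for ACTG1. If such sets spread evenly over the limit, 0.0526 accidental sets fall within the limit used for TUBA1B and for ACTB, and 0.316 for ACTG1. Normalized counts are recovered counts over size factors. Per the labels the 2 libraries of a fraction are independent biological replicates.

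Coordinates, lengths and sequences came from GENCODE 44 on hg38, which matched 99.1% of tested genes. The genes and lists were chosen with earlier results of these data known. Named beyond the 10 genes were, in each list, the genes with the highest and lowest log2 fold change and with the highest mean, of those with a mean over 50. Every other listed tubulin or actin with a mean over 50 was named too, as was every such pseudogene among the 46 rows. Alternatives were equal library totals, centring on the protein-coding median, Bonferroni adjustment, an adjusted p-value of at most 0.05, a stricter call with an absolute log2 fold change over 0.5 and a mean over 50, leaving out a library, and other gene lengths. The length of the main transcript, the narrower span range and the shares within a library were added after seeing the data. NumPy 2.4.6, SciPy 1.17.1, pandas 2.3.3 and numba 0.67.0 were used under Python 3.11.15.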

Additional observations from a re-analysis of the deposited data

How the results depend on the processing

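All 10 genes stayed higher in the cytoplasm and within the threshold under equal library totals, protein-coding centring and Bonferroni adjustment, and all 10 were called at an adjusted p-value of 0.05 and by the stricter call. Equal library totals moved their median log2 fold change from 2.73 to 2.07 and that of all lists from 0.89 to 0.23, by construction. Leaving out 1 library, a value with no test, gave medians of 2.63 to 2.83 and single genes between 2.08 and 3.75. The 3.75 was ACTG1 without nuclear B by its first count set, and the second set gave 3.49. The highest over the lowest level per kilobase, 76.6 with exons, was 123 with the whole span, from TUBA1B down to TUBA1C, and 90.0 with the main transcript. With equal library totals the median turned to -0.63 for other tubulins, -0.24 for ring complex partners, -0.52 for microtubule-associated proteins, -0.60 for capping and bundling genes, -0.61 for actin-responsive and -0.40 for nuclear actin-related genes, and ACTR10 and LMNB1 turned to -0.17 and -0.62. LMNB1 (adjusted p-value 3.79e-08), TUBE1 and the nuclear actin-related gene ACTR6, at -0.79 (adjusted p-value 1.97e-06), passed only on that scale. Calls then moved by over 1.5 times in several lists, to 5 cytoplasmic for microtubule-associated and capping genes and 5 and 11 nuclear for other tubulins and capping genes. The share of all tested genes called nuclear on that scale was not computed. Bonferroni adjustment ended the calls of ACTA2 (0.0128), TUBGCP3 (0.0643), TUBB4A, TBCD and ACTR10 (each 1). Protein-coding centring turned other tubulins to -0.0765, capping genes to -0.0464, actin-responsive genes to -0.0545 and LMNB1 to -0.0651. A minimum mean of 50 turned other tubulins to -0.25, actin-responsive genes to -0.45 and tubulin-modifying enzymes to 0.0602; fewer genes were then included. No paired analysis was possible because the replicate number of each recovered library is not known, and the edgeR test was not run because counts were recovered for 24 genes only. Precision was lowest for TUBB2A, with 146 and 171 nuclear counts.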
